A study of Mus musculus with 6 samples.

Results

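Metallothioneins and zinc transporters were followed in the livers of female mice with and without estrogen receptor alpha (ERα) in hepatocytes. The 10 genes were chosen by name, with earlier results of these data known. They were the metallothioneins Mt1 and Mt2, the metal-responsive transcription factor Mtf1, the Slc30a transporters Slc30a1, Slc30a5 and Slc30a10, and the Slc39a transporters Slc39a4, Slc39a5, Slc39a8 and Slc39a14. CT mice carried floxed ERα alleles (ERα fl/fl) and no cre, and LERKO mice had in addition an albumin-promoter cre transgene (Alb-cre/ERα fl/fl), so that loss of ERα and presence of cre go together. The albumin promoter is active in hepatocytes, and other liver cells of LERKO mice are not targeted. All mice were on the C57BL/6J background, no treatment is named for the livers on the arrays, and their age is not given in the sources used here. One Affymetrix Mouse Gene 1.1 ST array was used per mouse, with 3 CT and 3 LERKO mice. Values are log2 RMA signal, the background-corrected and normalized brightness of a probe set, and differences are LERKO minus CT on that log2 scale. Each of the 10 genes had 1 probe set paired with it alone. Of these, 9 reached a signal of 100 (6.64 on the log2 scale) in at least 1 array and were tested, beside 6902 genes that passed in the whole table, and Slc39a5 did not pass.

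Zinc in liver cells is held by metallothioneins, small cysteine-rich proteins that also bind copper and cadmium. When free zinc rises, the zinc-finger factor MTF-1 enters the nucleus, binds metal response elements and switches on the metallothionein genes and the zinc exporter gene Slc30a1. Slc30a proteins move zinc out of the cytosol, into organelles or out of the cell, and Slc39a proteins move zinc into the cytosol. In liver, metallothioneins and Slc39a14 are known to respond to glucocorticoids and to inflammation as well as to zinc.

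The promoters of both metallothionein genes and of Slc30a1 are shown because MTF-1 is known to act there. Each sequence, from RefSeq on GRCm38.p6, runs from 250 bases before the annotated start to 30 bases after it. Capitals mark the core of the metal response element, searched as TGCACNC and TGCGCNC on both strands. The windows are chr8:94178839-94179118 (plus strand) for Mt1, chr8:94172368-94172647 (plus strand) for Mt2 and chr1:191906531-191906810 (plus strand) for Slc30a1.
Mt1: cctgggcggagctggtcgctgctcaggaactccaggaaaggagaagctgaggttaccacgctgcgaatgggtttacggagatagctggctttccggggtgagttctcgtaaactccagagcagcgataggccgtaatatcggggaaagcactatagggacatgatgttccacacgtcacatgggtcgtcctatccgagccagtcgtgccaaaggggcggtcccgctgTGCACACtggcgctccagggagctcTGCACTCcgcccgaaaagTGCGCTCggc
Mt2: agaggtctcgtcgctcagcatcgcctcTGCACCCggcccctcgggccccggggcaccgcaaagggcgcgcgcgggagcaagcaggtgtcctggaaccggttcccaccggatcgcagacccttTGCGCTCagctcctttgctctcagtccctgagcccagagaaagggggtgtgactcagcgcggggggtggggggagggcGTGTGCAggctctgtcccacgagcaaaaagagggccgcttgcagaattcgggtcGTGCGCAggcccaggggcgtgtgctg
Slc30a1: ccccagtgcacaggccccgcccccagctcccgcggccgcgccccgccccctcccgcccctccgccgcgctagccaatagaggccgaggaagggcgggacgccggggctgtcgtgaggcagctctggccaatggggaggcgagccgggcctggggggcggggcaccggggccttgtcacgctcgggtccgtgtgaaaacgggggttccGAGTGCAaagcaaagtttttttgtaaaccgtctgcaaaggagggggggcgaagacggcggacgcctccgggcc
The Mt1 window held 3 such cores, the Mt2 window 4 and the Slc30a1 window 1. Counted from the annotated start, the Slc30a1 core lay at -43 to -37 on the opposite strand, and the only core of Mt1 before its start at -23 to -17. The other Mt1 cores lay after the annotated start, at 3 to 9 and 21 to 27, as did the Mt2 core at 5 to 11. Where transcription starts in these livers was not measured, and cores beyond the windows were not counted. Of all 32851 promoter windows of this length, 24.1% held at least 1 core and 1.73% held 3 or more. Slc30a10 also had 3 cores, of which 1 pair overlapped on opposite strands, and Slc30a5 had 1. Slc39a5 and Slc39a8, with 2 windows each, had 1 core in 1 of their windows, and the Mtf1 window had 0. No window was found in the table for Slc39a4 and Slc39a14. The full estrogen response element, GGTCA followed after 3 bases by TGACC, was found in 0 of the windows of these genes and in 0.067% of all windows. These matches describe the letters of the windows and are no evidence of binding. In the RefSeq gene order, Mt4, Mt3, Mt2 and Mt1 lie next to each other on chromosome 8, between Bbs2 and Nup93.

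Esr1, the gene deleted in LERKO hepatocytes, lay between 8.29 and 8.78 in CT mice and between 6.75 and 7.06 in LERKO mice, a difference of -1.65 (SE 0.15, limma adjusted p = 0.149). Of the hepatocyte markers fixed for the check, 7 had a probe set, and their lowest value in any array was 10.40. A pair of arrays carried RNA of other organs. All 7 exocrine pancreas markers and all 6 skeletal muscle markers were highest in CT mouse 3, where the log2 of their summed signal was 11.05 and 10.01, beside 6.91 to 7.11 and 6.34 to 7.97 in the other mice. The muscle value of 7.97 was that of LERKO mouse 2, and the remaining mice lay between 6.34 and 6.76. All 8 adrenal cortex markers were highest in LERKO mouse 2, with a log2 summed signal of 12.83 beside 6.46 to 6.83. The part of this RNA in the results was not tested. For the tested genes among the 10, the difference without both arrays is given beside it, and for the other genes named it is not given. CT mouse 2, singled out after its values were seen, was the lowest mouse for the Kupffer cell markers Clec4f, Cd5l, Adgre1 and Vsig4 but not for Marco, with a log2 summed signal of 10.79 over the list beside 11.25 to 11.51. Its log2 summed signal was also lowest for sinusoidal endothelial markers (11.15 beside 11.17 to 11.52) and stellate cell markers (11.70 beside 11.80 to 12.22). By the mean log2 level of the list, however, LERKO mouse 1 was lowest for both. It lay at 8.16 beside 8.42 in CT mouse 2 for sinusoidal endothelial markers and at 8.05 beside 8.08 for stellate cell markers. CT mouse 2 was also the highest mouse for Lyve1 and Col1a1 of these lists. In whole liver, fewer cells of a type and less RNA per cell cannot be told apart. The number of probe sets at a signal of 100 or more was 9452 to 9865 per array, and the number of arrays limits the precision.

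None of the 9 tested genes passed a false discovery rate of 5% between LERKO and CT livers. Mt1 had the highest positive difference, at 0.32, and Slc30a1 the lowest negative one, at -0.19. The Slc30a1 levels of LERKO mice all lay below those of CT mice, whereas the groups overlapped for the other 8 tested genes. Of the 9 genes, 5 were higher and 4 lower in LERKO by their means, with a median difference of 0.0047. Of all 10633 probe sets in the fit, 46.5% had a higher mean in LERKO, and their median difference was -0.0099. With limma, 0 of the 9 genes and 0 of all probe sets had an adjusted p under 0.05 (0% of those tested). At an unadjusted p under 0.05, 1 gene was lower and 0 were higher, beside 4.00% of all probe sets lower, 2.98% higher and 6.98% in either direction.

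**Figure D1:**
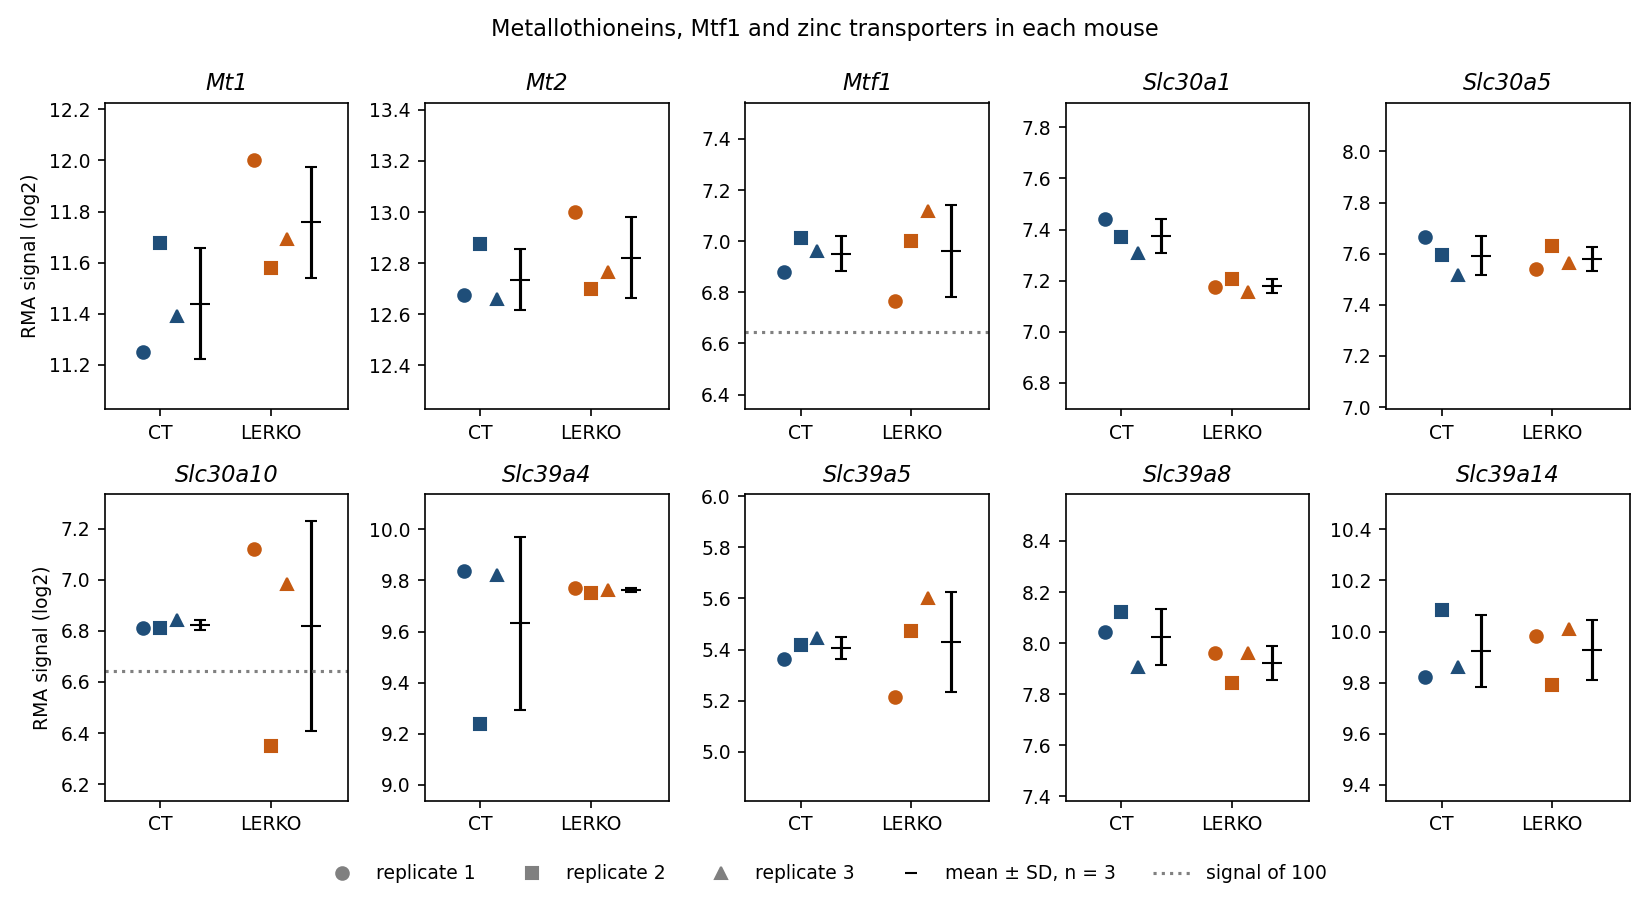
Log2 RMA signal (y axes, each with its own range) of the 10 genes in each mouse, with 1 point per array, CT and LERKO side by side, and a bar for each group mean. The LERKO points lie below all CT points for Slc30a1, and the groups overlap for the other genes.

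Mt1 was measured at 11.25, 11.68 and 11.39 in CT mice 1, 2 and 3 and at 12.00, 11.58 and 11.69 in LERKO mice 1, 2 and 3. LERKO mouse 1 was the highest of all, and CT mouse 2 lay within the LERKO range. The group means were 11.44 ± 0.22 in CT and 11.76 ± 0.22 in LERKO (SD, n = 3 each). The difference of 0.32 (SE 0.15, 95% interval -0.043 to 0.68, limma adjusted p = 0.712) corresponds to a 1.25-fold higher level, with an interval from 0.970 to 1.60. The exact two-sided permutation test over the 6 mice gave p = 0.2, where 3 against 3 mice can reach 0.1 at the lowest. Without CT mouse 2 the difference was 0.44 (unadjusted p = 0.0241, adjusted p = 0.773 from limma), and without LERKO mouse 1 it was 0.20 (unadjusted p = 0.223). It was 0.38 without CT mouse 3 and LERKO mouse 2.

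Mt2 is the close relative of Mt1 and the neighbouring gene. It lay at 12.68, 12.88 and 12.66 in CT mice and at 13.00, 12.70 and 12.77 in LERKO mice. Again LERKO mouse 1 was highest and CT mouse 2 was second, and the groups overlapped. The difference was 0.086 (SE 0.11, 95% interval -0.17 to 0.34, limma adjusted p = 0.870), within the SD of 0.12 in CT and 0.16 in LERKO. It was -0.0025 without LERKO mouse 1 and 0.11 without CT mouse 3 and LERKO mouse 2. The interval leaves room for a fold change in either direction but not for a change of 1 log2 unit. The coding parts of Mt1 and Mt2 are alike in sequence, so signal shared between their probe sets was not tested.

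The other metallothioneins, Mt3 of the brain and Mt4 of stratified epithelia, did not reach a signal of 100 in any array. Mt3 lay between 4.47 and 4.62 in the 6 mice. Mt4 was at 5.30 in CT mouse 3, the array with pancreas and muscle RNA, and between 3.41 and 3.71 in the rest.

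Mtf1, which encodes the zinc sensor that drives metallothionein transcription, lay at 6.878, 7.014 and 6.960 in CT mice and at 6.766, 7.002 and 7.119 in LERKO mice. The LERKO mice spread on both sides of the CT mice, with an SD of 0.18 beside 0.068. The difference was 0.012 (SE 0.11, 95% interval -0.24 to 0.26, limma adjusted p = 0.988), and it was -0.0034 without CT mouse 3 and LERKO mouse 2.

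Slc30a1 encodes ZnT1, the zinc exporter of the plasma membrane. Its levels were 7.44, 7.37 and 7.31 in CT mice and 7.18, 7.21 and 7.15 in LERKO mice. Every LERKO mouse was below every CT mouse, and the LERKO values lay close together (SD 0.027, beside 0.067 in CT). LERKO livers had 87.4% of the CT level, a difference of -0.19 (SE 0.067, 95% interval -0.36 to -0.033). The unadjusted p was 0.0254 and the adjusted p 0.703 with limma, and the exact permutation test gave 0.1, the lowest value possible with 3 against 3 mice. Groups lay apart with LERKO lower in 7.13% of all probe sets tested, and in either direction in 13.0%. Leaving out 1 mouse at a time, the difference stayed between -0.23 and -0.16, with an unadjusted limma p of 0.0842 without CT mouse 1, 0.0657 without LERKO mouse 1 and 0.0756 without LERKO mouse 3. Without both arrays that carried RNA of other organs it was -0.24 (limma, unadjusted p = 0.0441 and adjusted p = 0.449).

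Slc30a5 encodes a transporter that loads zinc into the secretory pathway. It lay at 7.67, 7.59 and 7.52 in CT mice and at 7.54, 7.63 and 7.57 in LERKO mice. All LERKO values fell inside the CT range, and the difference was -0.014 (SE 0.071, 95% interval -0.18 to 0.16, limma adjusted p = 0.978). It was -0.078 without CT mouse 3 and LERKO mouse 2.

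Slc30a10, which despite its family name is known as a manganese exporter, was at 6.81, 6.81 and 6.84 in CT mice and at 7.12, 6.35 and 6.98 in LERKO mice. The CT mice were nearly alike (SD 0.018), while LERKO mouse 2, the array with adrenal RNA, was the lowest of all and the 1 array under a signal of 100. LERKO mice 1 and 3 lay above all CT mice. With all mice the difference was -0.0048 (SE 0.19, 95% interval -0.47 to 0.46, limma adjusted p = 0.996), with the SD of LERKO at 0.41. Without LERKO mouse 2 it was 0.23 (unadjusted p = 0.0367, adjusted p = 0.650 from limma), and without CT mouse 3 as well it was 0.24. A change of either sign could thus not be told from none with these arrays.

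Slc39a14 encodes ZIP14, an importer of zinc, iron and manganese in hepatocytes. It lay at 9.82, 10.08 and 9.86 in CT mice and at 9.98, 9.79 and 10.01 in LERKO mice. CT mouse 2 was highest and LERKO mouse 2 lowest, and the difference was 0.0047 (SE 0.10, 95% interval -0.24 to 0.25, limma adjusted p = 0.993). It was 0.042 without CT mouse 3 and LERKO mouse 2.

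Slc39a8 encodes ZIP8, a related importer that takes manganese from bile back into the hepatocyte. Its values were 8.04, 8.12 and 7.91 in CT mice and 7.96, 7.84 and 7.96 in LERKO mice. CT mice 1 and 2 lay above all LERKO mice, and CT mouse 3 lay within the LERKO range. The difference of -0.10 (SE 0.083, 95% interval -0.30 to 0.095) had a limma adjusted p of 0.811 and an exact permutation p of 0.3. It was -0.12 without CT mouse 3 and LERKO mouse 2.

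Slc39a4 encodes ZIP4, the zinc importer best known from the intestine. It was measured at 9.84, 9.24 and 9.82 in CT mice and at 9.77, 9.75 and 9.76 in LERKO mice. CT mouse 2 was low, and the other 5 mice lay close together. The SD was 0.34 in CT and 0.0091 in LERKO. CT mouse 2 also had the lowest summed signal of Kupffer cell, sinusoidal endothelial and stellate cell markers. By the list means it was lowest for Kupffer cell markers only, and the part of these cells was not tested. The difference of 0.13 (SE 0.16, 95% interval -0.26 to 0.52, limma adjusted p = 0.873) turned to -0.066 without CT mouse 2. It was 0.23 without CT mouse 3 and LERKO mouse 2.

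Slc39a5 encodes ZIP5, a zinc importer of the basolateral membrane in gut and pancreas. It did not reach a signal of 100 in any array, at 5.36, 5.42 and 5.45 in CT mice and 5.22, 5.47 and 5.60 in LERKO mice. CT mouse 3, with pancreas RNA, lay within the range of the other mice.

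**Figure D2:**
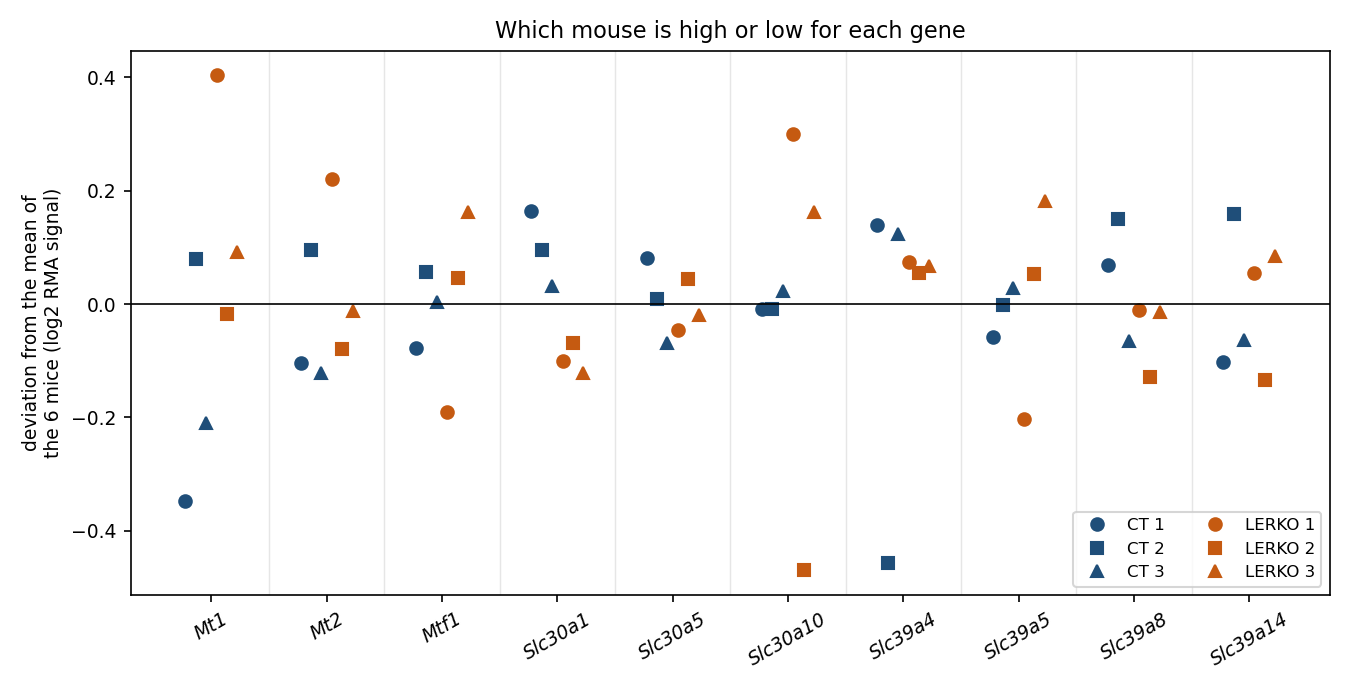
Deviation of each of the 10 genes from its own mean over the 6 mice (y axis, log2 RMA signal), with genes along the x axis and 1 point per mouse. Colour marks the group, CT or LERKO, and the marker shape marks the replicate. LERKO mouse 1 is highest for both Mt1 and Mt2, CT mouse 2 is low for Slc39a4, and LERKO mouse 2 is low for Slc30a10.

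The genes differed in how far single mice lay from each other. The distance between the lowest and the highest mouse was 0.75 for Mt1, 0.77 for Slc30a10 and 0.60 for Slc39a4, beside 0.15 for Slc30a5 and 0.28 for Slc39a8. The within-group SD of Mt1 was above that of 81.8% of all probe sets tested, that of Slc30a10 above 90.5% and that of Slc39a4 above 85.2%. For Slc30a1 only 7.72% had a smaller SD. At the median within-group SD of 0.12, a difference of 0.24 would have reached an unadjusted p of 0.05.

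The probe sets whose deviations over the 6 mice lay nearest to those of Mt1, by the root mean square difference among 7894 probe sets, were Baiap2 (0.069), Ubtf (0.075), Pabpn1 (0.080), Ccnd1 (0.085) and Acadl (0.095). Mt2 was number 80 in this order, at 0.14. Nearest to Mt2 were Sf3a3 (0.027), Sipa1l1 (0.031), 2310033P09Rik (0.035), Cops6 (0.035) and Zadh2 (0.036), and Slc39a14 was number 368 at 0.088. Mt1 was number 2521 in the order from Mt2. The measure counts the size of the deviations as well as their direction, and the mice spanned 0.75 for Mt1 and 0.34 for Mt2. The 6 arrays share the normalization and the organ RNA described above, so the order describes these mice.

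The remaining metallothioneins and zinc transporters, 19 genes, were examined beside the 10. Of these, 9 reached the signal for testing and 10 did not. By their means 4 were higher and 5 lower in LERKO, with a median difference of -2.3e-05, and 0 had a limma adjusted p under 0.05.

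Slc39a1, which encodes the plasma membrane importer ZIP1, had the most negative difference of the 18 zinc genes tested. It lay at 8.63, 8.70 and 8.56 in CT mice and at 8.36, 8.39 and 8.40 in LERKO mice, with a difference of -0.25 (SE 0.068, unadjusted p = 0.00931, adjusted p = 0.703 from limma). With this probe set the groups were apart, but a second probe set of the gene, at 8.64, 8.59 and 8.21 in CT and 8.34, 8.15 and 8.59 in LERKO, overlapped between the groups with a difference of -0.12 (SE 0.16). Slc39a13, which encodes an importer that brings zinc out of the secretory pathway, lay at 7.64, 7.67 and 7.45 in CT mice and 7.41, 7.32 and 7.44 in LERKO mice. Its groups did not overlap either, by a margin between CT mouse 3 and LERKO mouse 3 that was far smaller than the SD, and the difference was -0.19 (SE 0.085, limma, unadjusted p = 0.0612 and adjusted p = 0.703). Slc39a7, which releases zinc from the endoplasmic reticulum, had the highest positive difference of the 9 tested, at 0.055 (SE 0.068). Over the full set of 29 metallothioneins, zinc transporters and Mtf1, 18 entered the fit, 9 with a higher and 9 with a lower mean in LERKO and a median difference of 0.00054. Of the 18, 2 had an unadjusted limma p under 0.05, both lower, beside 4.00% of all probe sets lower and 6.98% in either direction. Groups did not overlap for 3, all lower, beside 7.13% of all probe sets lower and 13.0% in either direction. The direction was not set before the values were seen.

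**Figure D3:**
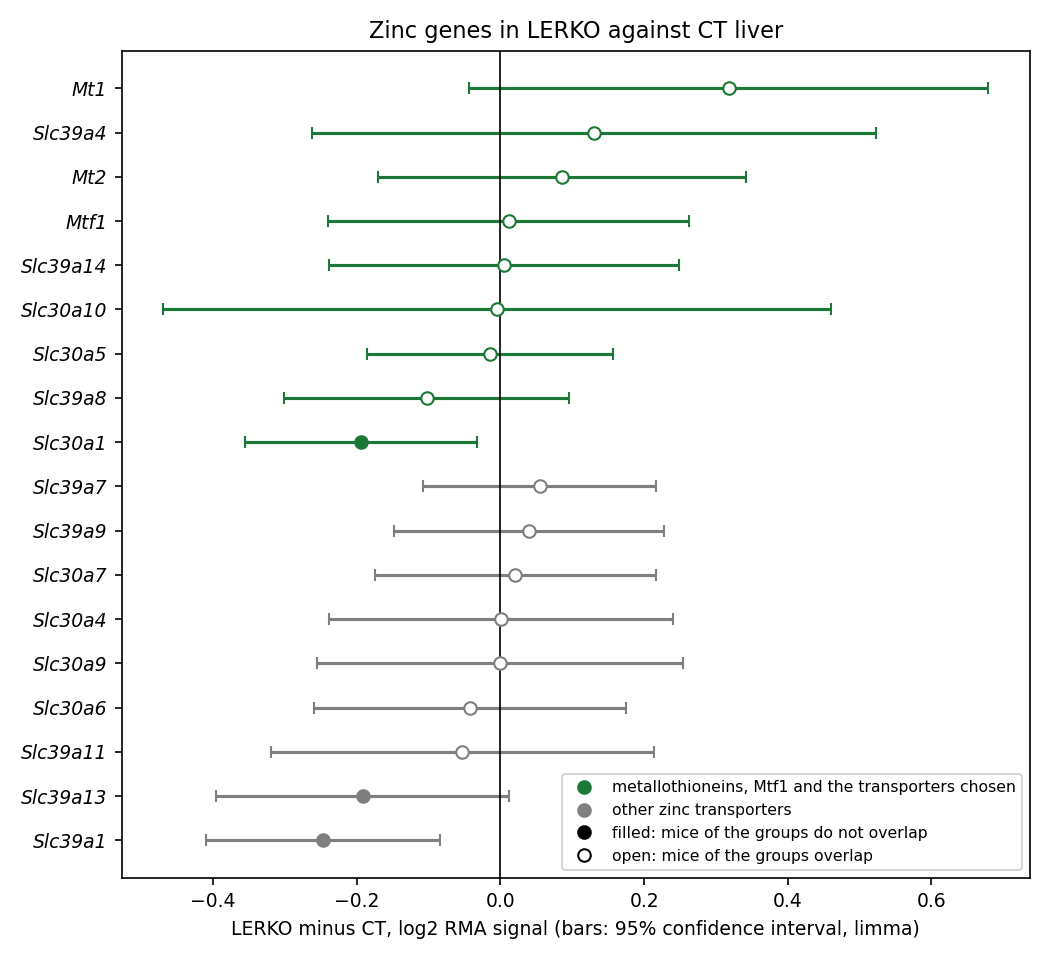
Difference between LERKO and CT (x axis, log2 RMA signal) with its 95% interval from limma for the 18 tested zinc genes. Most intervals include 0, and those of Slc30a1 and Slc39a1 lie below it.

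Because metallothioneins are known to respond to glucocorticoids, inflammation and oxidative stress, genes of these responses were counted in the same fit, and 0 of them had a limma adjusted p under 0.05. Over all probe sets, 6.98% had an unadjusted limma p under 0.05 and 13.0% had groups apart, in either direction. Of 11 tested glucocorticoid-responsive genes, 6 had a higher and 5 a lower mean in LERKO (median difference 0.031). At an unadjusted limma p under 0.05, 1 was higher and 1 lower, and groups lay apart for 1 higher and 2 lower. Zbtb16, a transcription factor gene induced by glucocorticoids, had a difference of 0.77 (SE 0.21, limma, unadjusted p = 0.0100 and adjusted p = 0.703, groups apart), Dusp1, a phosphatase gene of the stress response, -0.56 (SE 0.46), and Sgk1, a kinase gene, -0.55 (SE 0.23, groups apart). Nr3c1, the glucocorticoid receptor gene, singled out after its value was seen, had a difference of -0.20 (limma, unadjusted p = 0.0207 and adjusted p = 0.703, groups apart). Of 17 acute phase genes, 8 had a higher and 9 a lower mean (median -0.031). By the unadjusted limma p 1 was higher and 1 lower, as were the genes with groups apart. Il6ra, which encodes the interleukin-6 receptor, had a difference of 0.53 (SE 0.14, limma, unadjusted p = 0.00807 and adjusted p = 0.703, groups apart), the lipocalin gene Lcn2 0.45 (SE 0.32) and the orosomucoid gene Orm2 0.27. Stat3, the transcription factor gene of interleukin-6 signalling, singled out after its value was seen, had a difference of -0.25 (SE 0.10, limma, unadjusted p = 0.0414 and adjusted p = 0.703, groups apart). Of 11 oxidative stress genes, 3 had a higher and 8 a lower mean (median -0.034). By the unadjusted limma p 0 were higher and 1 lower, as with groups apart. Osgin1 had a difference of -0.53 (SE 0.16, limma, unadjusted p = 0.0133 and adjusted p = 0.703, groups apart), Srxn1, which repairs peroxiredoxins, 0.26, and Gclc, the catalytic subunit of glutathione synthesis, -0.17.

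Genes that handle copper and manganese, metals shared with the metallothioneins and with Slc30a10, Slc39a8 and Slc39a14, were counted likewise. Of 15 tested, 9 had a higher and 6 a lower mean (median 0.026). At an unadjusted limma p under 0.05 there were 0, beside 6.98% of all probe sets. The groups lay apart for 1 higher gene, Atp7a, which reached a signal of 100 in 1 array only. They also lay apart for 1 lower gene, Steap4, beside 13.0% of all probe sets in either direction. Steap2, a metalloreductase gene, had a difference of -0.35 (SE 0.15), Atp7b, the copper pump of the hepatocyte, 0.18 (SE 0.12), and Steap4, a relative of Steap2, -0.18 (SE 0.092). Of 9 liver enzymes that carry zinc, 6 had a higher and 3 a lower mean by the probe set of highest mean (median 0.011). Of these probe sets, 0 had an unadjusted limma p under 0.05, beside 6.98% of all probe sets. Alkaline phosphatase Alpl had a difference of 0.26, dihydropyrimidinase Dpys 0.19 and the methyltransferase Bhmt 0.097 (SE 0.11). A second, dimmer Bhmt probe set lay at 8.23, 8.08 and 8.39 in CT mice and at 8.75, 8.58 and 8.52 in LERKO mice, apart between the groups, with a difference of 0.38 (SE 0.11) and an unadjusted p of 0.0103 with limma, so the probe sets of this gene disagree. Leaving out 1 mouse at a time, the median of every list, that of the 10 genes included, took both signs.

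**Figure D4:**
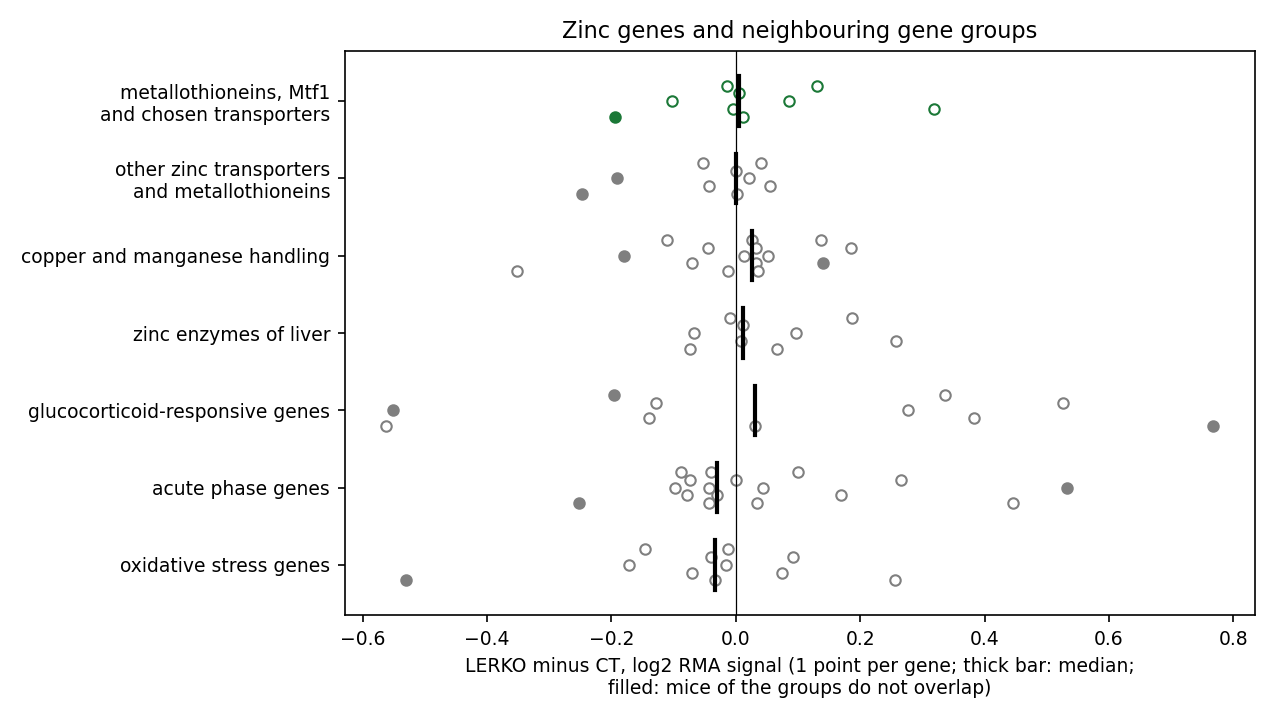
Differences between LERKO and CT (x axis, log2 RMA signal) of the tested genes in each list, with 1 point per gene, a thick bar at the median, and filled points where the groups of mice do not overlap. The medians lie between -0.034 and 0.031, and single genes of the glucocorticoid list reach from -0.56 to 0.77.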

How the data were processed

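The authors normalized the scanned arrays by RMA, the robust multichip average, in the oligo package (version not given in the sources used here). The deposited values are log2 RMA signals of 35556 probe sets, background-corrected and quantile-normalized, with no filter. Normalization assumes similar overall signal in all arrays, so a shift common to most genes could not be seen. The study's methods drop genes under a signal of 100 across the samples. Here a probe set entered the tests if any array reached 100 (10633 did), and asking it of every array was an alternative. LERKO was compared with CT by limma 3.58.1 (R 4.3.3) with genotype alone and p-values adjusted by Benjamini-Hochberg over those 10633, at a false discovery rate of 5%. The procedure was also run on simulated arrays, with differences larger than any of the genes chosen and without RNA of other organs. That run does not bear on differences as small as theirs. Genes were named from the platform annotation, updated through gene IDs, by probe sets with 1 gene (21218), and the probe set of highest mean stood for its gene. Other genes named are the 3 largest differences of each list and the 5 nearest patterns to Mt1 and Mt2, and the few beyond these were named after their values were seen. The genes and lists were chosen with earlier results of these data known. The labels give the arrays as biological replicates. Differences on this scale can be smaller than the true change of RNA, since RMA signals are compressed. Mt1 and Mt2 have entries in the study's own comparison of whole-body ERα knockout livers, which comes from another array type, and its values are not used here. Alternatives changed the filter, the fit, the scaling, the replicate block and the arrays included.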

Additional observations from a re-analysis of the deposited data

How the results depend on the processing

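With 14 other settings and 1 chosen after seeing the data (without CT mouse 3 and LERKO mouse 2), 0 of the tested genes had a limma adjusted p under 0.05, and Mt1 stayed higher and Slc30a1 and Slc39a8 lower in LERKO. Over all probe sets, the number with an adjusted p under 0.05 was 3 with a signal of 100 asked of all 6 arrays, 1 with an intensity trend, and 0 to 1 leaving out 1 mouse (1 without LERKO mouse 3). Of the 9 tested genes, the number with an unadjusted limma p under 0.05 was 2 with array weights and 0 with a replicate block. It was 0 to 3 leaving out 1 mouse (0 without CT mouse 1, LERKO mouse 1 or LERKO mouse 3, 2 without CT mouse 2, 3 without LERKO mouse 2). Over all 10633 probe sets the number was 742 in the main fit, 984 with array weights and 574 with a replicate block. There it was 416 to 1188 leaving out 1 mouse (664 without CT mouse 2, 801 without LERKO mouse 2). The cause was not tested. Same-numbered mice did not deviate together from their group means (r = -0.157, -0.0731 and -0.137). Deviations from a mean of 3 mice depend on each other, so these values cannot settle whether the numbers pair the mice. The labels do not say.

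Signs turned for Slc30a10, Slc30a5 and Mtf1, whose differences were near 0, and, leaving out 1 mouse, also for Slc39a14, for Mt2 (without LERKO mouse 1) and for Slc39a4 (without CT mouse 2). Slc30a10 was at 0.015 with array weights, 0.0064 with array medians set equal, 0.0031 with quantile normalization repeated and 0.24 without CT mouse 3 and LERKO mouse 2. Slc30a5 was at 0.0019 with quantile normalization repeated and at -0.078 without CT mouse 3 and LERKO mouse 2, where Mtf1 was at -0.0034. Leaving out 1 mouse at a time, the differences ranged from 0.20 to 0.44 for Mt1, -0.0025 to 0.16 for Mt2, -0.067 to 0.11 for Mtf1, -0.23 to -0.16 for Slc30a1, -0.052 to 0.023 for Slc30a5, -0.16 to 0.23 for Slc30a10, -0.066 to 0.23 for Slc39a4, -0.16 to -0.053 for Slc39a8 and -0.045 to 0.085 for Slc39a14. Over all settings the adjusted p ranged from 0.523 to 0.992 for Mt1 and from 0.398 to 0.992 for Slc30a1. Averaging the probe sets of a gene was not run, since each of the 10 genes had 1. Leaving out 1 mouse, the medians ranged from -0.037 to 0.073 for the 10 genes, -0.049 to 0.018 for the other zinc genes, -0.0063 to 0.029 for copper and manganese handling, -0.013 to 0.042 for zinc enzymes, -0.067 to 0.13 for glucocorticoid-responsive, -0.052 to 0.023 for acute phase and -0.053 to 0.0036 for oxidative stress genes. With 3 mice a group, differences under about 0.24 at the median SD would not have reached an unadjusted p of 0.05. The adjusted p asks for more, and even Esr1, with a difference of -1.65, had a limma adjusted p of 0.149. Larger differences than 0.24 could thus also have been missed after adjustment.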
